A study of Mus musculus with 4 samples.

Results

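The 9 genes described here are Mkx and 8 regulators or products of the tendon and ligament programme: Scx, Tnmd, Thbs4, Egr1, Egr2, Six2, Eya1 and Eya2. They were chosen by name, with earlier results of these data known, from 22911 genes named on the array. Their probes were found through the RefSeq accession that the array design gives. The members had 11 probes, and Mkx and Eya2 had 2 probes each. The brightest probe of a gene stands for it unless another is named, and all 9 members were called well above background by the scanner software on all 4 arrays.

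The tissue, labelled PDL in mice, is the periodontal ligament, which anchors the root of a tooth in the jaw bone. There were 4 groups with 1 one-colour array each: Mkx knockout (Mkx-KO) at 10 weeks of age, wild type (WT) at 10 weeks, Mkx-KO at 4 weeks and WT at 4 weeks. No treatment is named for any group. The labels do not give the strain, the sex, the number of mice in a preparation, or which piece of Mkx was removed. With 1 array per group, differences describe these 4 preparations, and no spread between mice can be given.

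Mkx encodes Mohawk, an atypical homeodomain transcription factor, and mice without it form thin tendons with little collagen. Scx, a basic helix-loop-helix factor, marks tendon and ligament progenitors, and in mouse tendon the membrane protein gene Tnmd depends on it. Egr1 and Egr2 are zinc finger factors that respond to growth factors and load and can drive tendon collagen genes, while Six2 is a homeodomain factor whose family works with the Eya co-activators, and Thbs4 encodes a matrix glycoprotein of tendon and muscle attachments.

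Marker genes were read first. All 10 genes listed as markers of periodontal ligament fibroblasts, among them Postn, Col1a1 and Aspn, were well above background on every array. Their summed linear level, in units of each array's 75th percentile signal, was 3002 in Mkx-KO and 2811 in WT at 10 weeks, and 2869 in Mkx-KO and 2925 in WT at 4 weeks. Col1a2 was the brightest of the 10 on every array, and such a sum does not measure the share of ligament in a preparation. Markers of other tissues were present too and differed between arrays. The 10 olfactory and nasal markers summed to 1546 in Mkx-KO and 1195 in WT at 10 weeks, and to 1.95 in Mkx-KO against 617 in WT at 4 weeks, where only 7 of the 10 were well above background in Mkx-KO. The Mkx-KO array at 4 weeks thus stood apart from the other 3 for this tissue. The 16 skeletal muscle markers summed to 291 and 221 in Mkx-KO and WT at 10 weeks, and to 71.9 and 169 in Mkx-KO and WT at 4 weeks. The 11 markers of stratified epithelium summed to 463 in Mkx-KO and 847 in WT at 10 weeks, and to 592 in Mkx-KO and 335 in WT at 4 weeks. All 16 and all 11 were well above background on every array. Of the 10 cartilage markers, between 5 and 7 passed on each array. All 10 blood and marrow markers were higher in Mkx-KO than in WT at 10 weeks, with a median log2 difference of 0.77. At 4 weeks 2 of the 10 were, with a median of −0.22. Of 8 bone and cementum markers, 7 were higher in Mkx-KO at 10 weeks and 3 at 4 weeks, with medians of 0.23 and −0.35. The 6 tooth markers summed to 19.5 and 34.3 in Mkx-KO and WT at 10 weeks, and to 29.2 and 55.9 at 4 weeks. The part of these tissues in the differences below was not tested, and in bulk RNA fewer cells of a type cannot be told apart from less RNA per cell.

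**Figure D1:**
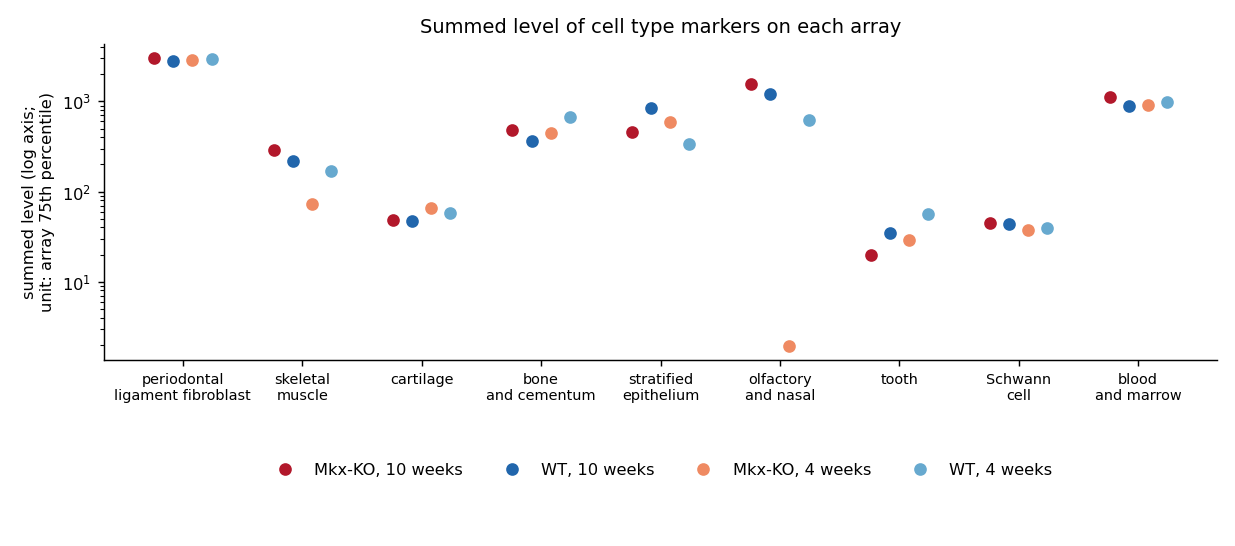
Summed linear level of each marker list on each array, on a log axis, in units of the array's 75th percentile signal. The periodontal ligament list stays between 2811 and 3002, while the olfactory and nasal list is at 1.95 on the Mkx-KO array at 4 weeks and between 617 and 1546 on the other 3.

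Levels below are log2 of the background-subtracted spot intensity minus the array's own 75th percentile, so 0 is the 75th percentile. A level is read across arrays for the same probe only, since probes differ in brightness for the same amount of RNA. Differences are Mkx-KO minus WT, or 10 weeks minus 4 weeks. The technical error of a difference combines the errors that the scanner software estimated for the 2 spots and was about 0.20 for the members. For their brightest probes it stayed between 0.204 and 0.208 in every comparison, although their signals differed widely. For them 2 technical errors are therefore close to a fixed limit, not a spread measured between repeat spots. The technical error does not cover variation between mice.

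At 10 and at 4 weeks Mkx, the targeted gene, was lower in Mkx-KO, and transcript signal was still above background there. Its processed intensity was 108 in Mkx-KO and 553 in WT at 10 weeks, and 193 in Mkx-KO and 563 in WT at 4 weeks. In log2 levels this was −1.26 in Mkx-KO and 0.84 in WT at 10 weeks, and −0.57 in Mkx-KO and 1.08 in WT at 4 weeks. Both Mkx-KO arrays lay below both WT arrays, with no overlap. The difference was −2.10 ± 0.21 (technical error) at 10 weeks and −1.65 ± 0.21 at 4 weeks, so that the Mkx-KO signal was 23.3% and 31.8% of the WT signal at those ages. Between the ages, 10 weeks minus 4 weeks was −0.69 ± 0.21 in Mkx-KO and −0.24 ± 0.20 in WT. A second Mkx probe, dimmer but well above background on all arrays, had genotype differences of −1.94 ± 0.30 at 10 weeks and −1.38 ± 0.26 at 4 weeks, and age differences of −0.54 ± 0.33 in Mkx-KO and 0.03 ± 0.22 in WT, both within 2 technical errors. Where the 2 probes lie relative to the removed piece was not used here, so they check the labels without telling how much intact transcript remained. With normexp background correction at an offset of 50 the first probe's genotype differences were −1.47 at 10 weeks and −1.35 at 4 weeks, and those of the dim second probe were −0.56 and −0.62. The age difference in Mkx-KO was then −0.38 for the first probe and −0.04 for the second, neither beyond 2 technical errors. Technical errors were computed from the processed intensity alone, and the same errors are used wherever another processing is named.

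**Figure D2:**
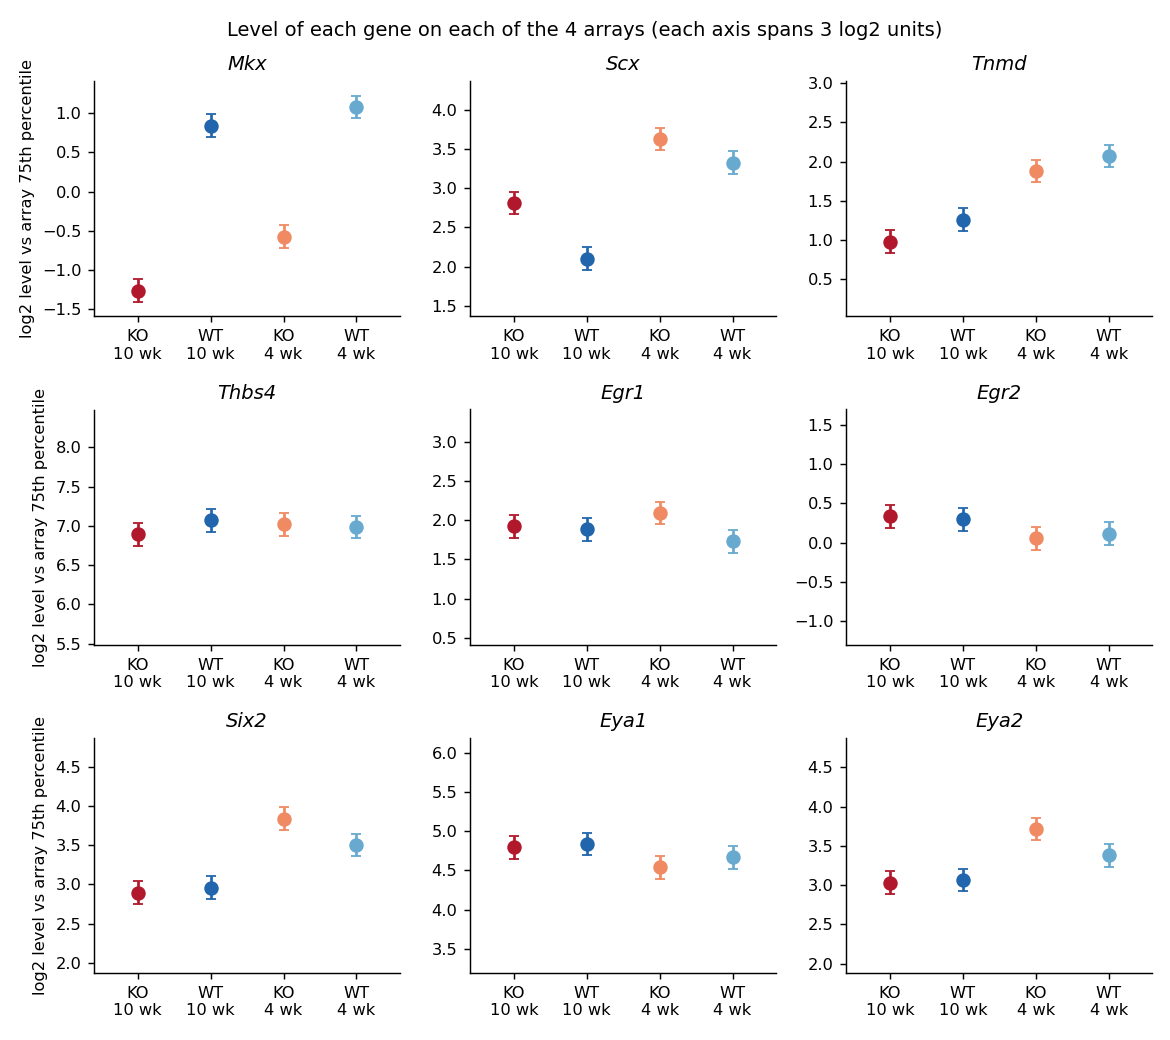
Log2 level of the 9 genes on the 4 arrays, each gene on its own, relative to the array's 75th percentile; error bars are the technical error of the scanner software. Both Mkx-KO arrays lie below both WT arrays for Mkx, and the arrays at 10 weeks lie below those at 4 weeks for Scx, Tnmd, Six2 and Eya2; for Eya2 in WT this turns to 0.04 by the authors' deposited values.

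Scx was higher in Mkx-KO than in WT at both ages and lower at 10 weeks than at 4 weeks in both genotypes. Its processed intensity was 1822 in Mkx-KO and 1327 in WT at 10 weeks, and 3542 in Mkx-KO and 2672 in WT at 4 weeks. The log2 levels were 2.81 in Mkx-KO and 2.10 in WT at 10 weeks, and 3.63 in Mkx-KO and 3.32 in WT at 4 weeks. The genotype groups overlapped across ages, because the WT level at 4 weeks exceeded the Mkx-KO level at 10 weeks. Within an age Mkx-KO was higher by 0.71 ± 0.20 at 10 weeks and by 0.30 ± 0.20 at 4 weeks, so the first difference exceeded 2 technical errors and the second did not. Among all genes measured at 10 weeks, 2.89% were at least as far above WT as Scx, and at 4 weeks 14.6% were. Scx is thus in the upper tail of the 10-week differences and well inside those of 4 weeks.

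Tnmd, which encodes tenomodulin and is a marker of mature tendon and ligament cells, differed more between the ages than between the genotypes. Its processed intensity was 512 in Mkx-KO and 740 in WT at 10 weeks, and 1055 in Mkx-KO and 1122 in WT at 4 weeks. The log2 levels were 0.98 in Mkx-KO and 1.26 in WT at 10 weeks, and 1.88 in Mkx-KO and 2.07 in WT at 4 weeks. Both arrays at 10 weeks lay below both at 4 weeks. Tnmd differed by −0.28 ± 0.20 between Mkx-KO and WT at 10 weeks and by −0.19 ± 0.20 at 4 weeks, both within 2 technical errors. Scx and Tnmd therefore had opposite signs between the genotypes at both ages.

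Tnmd and Six2 are the 2 members with a promoter window in the RefSeq table whose level was lower at 10 weeks than at 4 weeks by more than 2 technical errors in both genotypes. For Six2 in WT that call was lost with quantile normalization (−0.39) and with the deposited values (−0.19), while Tnmd kept it under every scaling tried. The 250 bases before each start site are shown to set their base composition side by side, with every CpG in capitals and the rest in lower case, 5′ to 3′ on the gene's strand, from RefSeq on build GRCm38.p6. The windows lie at chrX:133850758-133851007 on the plus strand for Tnmd and at chr17:85688255-85688504 on the minus strand for Six2.
Tnmd: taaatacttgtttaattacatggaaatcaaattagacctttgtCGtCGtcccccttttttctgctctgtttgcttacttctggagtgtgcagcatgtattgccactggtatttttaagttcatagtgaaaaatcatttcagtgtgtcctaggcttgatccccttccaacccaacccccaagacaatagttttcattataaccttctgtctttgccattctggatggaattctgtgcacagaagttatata
Six2: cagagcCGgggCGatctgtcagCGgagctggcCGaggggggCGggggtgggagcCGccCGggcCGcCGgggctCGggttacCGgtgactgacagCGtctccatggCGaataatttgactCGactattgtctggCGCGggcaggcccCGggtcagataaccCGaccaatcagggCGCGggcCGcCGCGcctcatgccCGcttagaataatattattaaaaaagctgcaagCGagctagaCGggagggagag
The Tnmd window held 2 CpG and had a GC content of 38.4%, while the Six2 window held 26 CpG and had 64.8% GC. Over 32851 such windows in the table the medians were 6 CpG and 52.4% GC, so the 2 windows lay on opposite sides of the median. The E-box letters CANNTG, read by basic helix-loop-helix proteins such as Scx, occur in 66.2% of all windows and in neither of these on either strand. That says only that these letters are not in these 250 bases. Only 4 of the 9 members had a window, Scx not among them. The Thbs4 window held 1 E-box match, and the Egr2 windows held 1 or 0.

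Thbs4, which encodes thrombospondin 4, varied little over the 4 arrays by the scaling used here. Its processed intensity was 30847 in Mkx-KO and 41586 in WT at 10 weeks, and 37164 in Mkx-KO and 33772 in WT at 4 weeks. In log2 levels this was 6.89 in Mkx-KO and 7.07 in WT at 10 weeks, and 7.02 in Mkx-KO and 6.98 in WT at 4 weeks. No 2 neighbours in the order of its levels were more than 2 technical errors apart, and the genotype differences were −0.18 ± 0.20 at 10 weeks and 0.03 ± 0.20 at 4 weeks. At 4 weeks the 16 muscle markers had a median difference of −1.22. Of them 12 were at least 2-fold lower in Mkx-KO, against 3.31% of all measured genes. The part of muscle in the Thbs4 values was not tested.

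The early growth response factors varied little with genotype at 10 weeks. Egr1 had log2 levels of 1.92 in Mkx-KO and 1.88 in WT at 10 weeks, and 2.09 in Mkx-KO and 1.73 in WT at 4 weeks. Egr2 had log2 levels of 0.34 in Mkx-KO and 0.29 in WT at 10 weeks, and 0.05 in Mkx-KO and 0.11 in WT at 4 weeks. For Egr1 both Mkx-KO arrays lay above both WT arrays, an order lost with the deposited values, by which the 10-week difference was −0.01, while the genotypes overlapped for Egr2, whose arrays at 10 weeks both lay above those at 4 weeks. No neighbours in either order were more than 2 technical errors apart. The largest genotype difference of the pair was that of Egr1 at 4 weeks, 0.36 ± 0.20, which is within 2 technical errors. Egr2 also regulates myelin genes in Schwann cells, and the list of 7 Schwann cell markers, which holds Egr2, summed to 44.4 in Mkx-KO and 43.2 in WT at 10 weeks and to 37.1 in Mkx-KO and 39.3 in WT at 4 weeks.

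Six2, a homeodomain factor, was lower at 10 weeks than at 4 weeks in both genotypes. Its log2 levels were 2.89 in Mkx-KO and 2.96 in WT at 10 weeks, and 3.84 in Mkx-KO and 3.50 in WT at 4 weeks. Eya2, a co-activator and phosphatase that partners Six2 and its relatives, had log2 levels of 3.03 in Mkx-KO and 3.06 in WT at 10 weeks, and 3.72 in Mkx-KO and 3.38 in WT at 4 weeks. By the scaling used here the array order for both genes was Mkx-KO at 4 weeks, WT at 4 weeks, WT at 10 weeks, then Mkx-KO at 10 weeks, although for Eya2 no neighbouring pair in that order was more than 2 technical errors apart. The second Eya2 probe had the same order, with log2 levels of −0.56 in Mkx-KO and −0.49 in WT at 10 weeks, and 0.27 in Mkx-KO and −0.02 in WT at 4 weeks. Eya1, the other co-activator, did not share it: its log2 levels were 4.79 in Mkx-KO at 10 weeks, 4.54 in Mkx-KO at 4 weeks and 4.67 in WT at 4 weeks, with WT at 10 weeks highest at 4.83, both arrays at 10 weeks lay above both at 4 weeks, and no neighbouring pair was more than 2 technical errors apart. At 4 weeks Six2 and Eya2 were each higher in Mkx-KO by 0.34 ± 0.20, within 2 technical errors, in the pair of arrays whose olfactory and nasal markers had a median difference of −6.82, and the part of that tissue was not tested.

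Read as a group, the members other than Mkx differed little between the genotypes. At 10 weeks 1 of the 9, Mkx, was lower in Mkx-KO by at least 2-fold and none was 2-fold higher, against 2.41% of 16457 measured genes that were at least 2-fold apart in either direction, 1.37% lower and 1.04% higher. At 4 weeks 1 of the 9, again Mkx, was at least 2-fold lower, against 3.78% of 15686 genes in either direction, 3.31% lower and 0.472% higher. Since Mkx is the gene removed, its count is a check of the labels. Without Mkx the median difference of the other 8 was −0.04 at 10 weeks and 0.17 at 4 weeks, beside medians of 0.01 and 0.06 over all measured genes. At 10 weeks 2 of the 9 members, Mkx and Scx, exceeded 2 technical errors, against 14.0% of all measured genes, 6.85% lower and 7.18% higher. At 4 weeks 1 did, Mkx, against 15.6% of all measured genes, 8.85% lower and 6.78% higher. Mkx and Scx at 10 weeks and Mkx at 4 weeks were also the members past that limit under each of the 6 other processings, judged by the same technical errors. Mkx lay far out in both comparisons: 21 genes, or 0.128%, were at least as far below WT at 10 weeks, and 215 genes, or 1.37%, at 4 weeks.

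**Figure D3:**
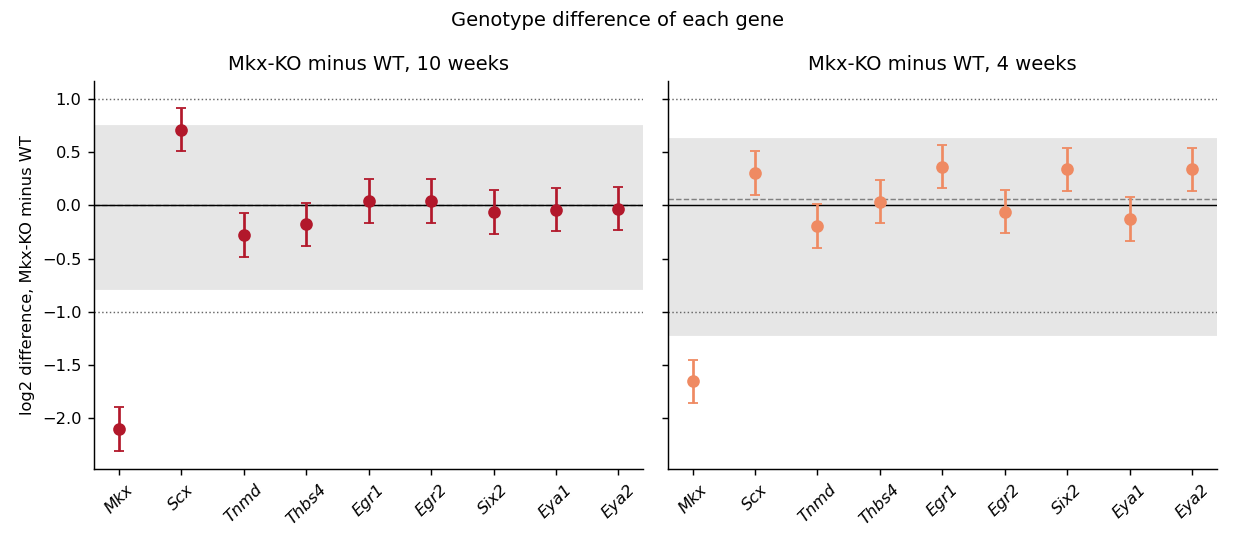
Log2 difference, Mkx-KO minus WT, of the 9 genes at 10 weeks and at 4 weeks, with bars for the technical error; the grey band is the central 95% of all measured genes, the dashed line their median and the dotted lines 2-fold. Mkx, at −2.10 and −1.65, is the one member outside the band at either age.

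limma, fitted over all 4 arrays with genotype and age as additive terms, left 1 residual degree of freedom and called 0 of 16795 genes (0.0%) for genotype at an adjusted p of 0.05, while 455 had an unadjusted p under 0.05. In that fit the Mkx difference was −1.88 (SE 0.18), with an unadjusted p of 0.00272 and an adjusted p of 1. For Scx limma gave 0.51 (SE 0.17), an unadjusted p of 0.0685 and an adjusted p of 1. The other 7 members had unadjusted p-values of 0.169 to 0.949. A p-value of this fit sets the estimate against how far the 4 arrays depart from additivity, moderated over all genes. It does not measure the spread between mice.

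Between the ages, 5 of the 9 members in Mkx-KO and 3 in WT lay beyond 2 technical errors, all of them lower at 10 weeks. The same limit was passed by 41.2% of all measured genes in Mkx-KO, 25.8% lower and 15.4% higher, and by 34.8% in WT, 20.7% lower and 14.1% higher. In either direction the members' count in WT is near the share of all genes. Counting only lower genes, both counts are above that share, a gap among 9 chosen genes that was not tested. The central 95% of genes ran from −1.15 to 1.72 for age in Mkx-KO and from −1.20 to 1.39 in WT, and from −0.79 to 0.74 for genotype at 10 weeks and −1.22 to 0.62 at 4 weeks. In Mkx-KO, 10 weeks minus 4 weeks was −0.94 for Six2, −0.90 for Tnmd, −0.82 for Scx, −0.69 for Mkx and −0.68 for Eya2, all beyond 2 technical errors. That call was lost for Mkx with normexp (−0.38) and for Mkx and Eya2 with the deposited values (−0.40 and −0.39). None of the 9 members reached 2-fold, against 10.1% of 15669 measured genes, 6.25% higher and 3.84% lower. In WT the difference was −1.22 for Scx, −0.81 for Tnmd and −0.54 for Six2, again beyond 2 technical errors, while Mkx was at −0.24 and Eya2 at −0.32. The WT values do not use the Mkx-KO array that stood apart at 4 weeks, but marker lists differed between the WT arrays too. Of 11 stratified epithelium markers, 7 were at least 2-fold higher at 10 weeks and 0 lower, with a median of 1.12. Of 6 tooth markers, 5 were 2-fold lower and 1 higher, with a median of −2.10. Among 8 bone and cementum markers 3 were 2-fold lower and 0 higher. The part of these tissues in the WT values was not tested. In WT 1 of the 9 members, Scx, was at least 2-fold lower at 10 weeks, against 8.84% of 16102 genes in either direction, 5.01% higher and 3.83% lower. Thbs4, Egr1, Egr2 and Eya1 were within 2 technical errors in both genotypes by the scaling used here, with differences between −0.17 and 0.28. By the deposited values Egr2 was higher at 10 weeks by 0.57 in Mkx-KO and 0.54 in WT, Eya1 by 0.55 and 0.53, Egr1 in WT by 0.51 and Thbs4 in WT by 0.44, all beyond 2 technical errors, as was Eya1 in Mkx-KO with quantile normalization at 0.52.

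The size of an age difference depends on how the arrays are scaled. The authors' deposited values, which equal the processed signal times 1 factor per array, moved the median of all genes by 0.29 in Mkx-KO and by 0.36 in WT. Of the genes at least 2-fold apart, 61.96% were higher at 10 weeks in Mkx-KO by the scaling used here, 85.42% by the deposited values and 73.6% after subtracting a local spot offset. In WT 56.64% were higher by the scaling used here and 82.89% by the deposited values. Relative to the median of all genes, which the factors leave in place, Scx was at −0.66 in Mkx-KO and −1.13 in WT, Tnmd at −0.75 in Mkx-KO and −0.72 in WT, and Six2 at −0.79 in Mkx-KO and −0.45 in WT. Scx, Tnmd and Six2 kept their sign in both genotypes under every scaling tried, Scx and Tnmd beyond 2 technical errors each time and Six2 in WT not with quantile normalization (−0.39) or the deposited values (−0.19), whereas by the deposited values Thbs4 was at 0.17 and Egr1 at 0.12 in Mkx-KO, and Mkx at 0.12 and Eya2 at 0.04 in WT, the opposite signs to those above or in the plot of age differences.

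limma called 0 of 16795 genes (0.0%) for age at an adjusted p of 0.05, with 4074 genes at an unadjusted p under 0.05. Its age estimate was −1.02 (SE 0.17) for Scx and −0.86 (SE 0.13) for Tnmd, each with an adjusted p of 0.176. For Six2 limma gave −0.74 (SE 0.17, adjusted p of 0.182) and for Eya2 −0.50 (SE 0.17, adjusted p of 0.219). No member passed the threshold.

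**Figure D4:**
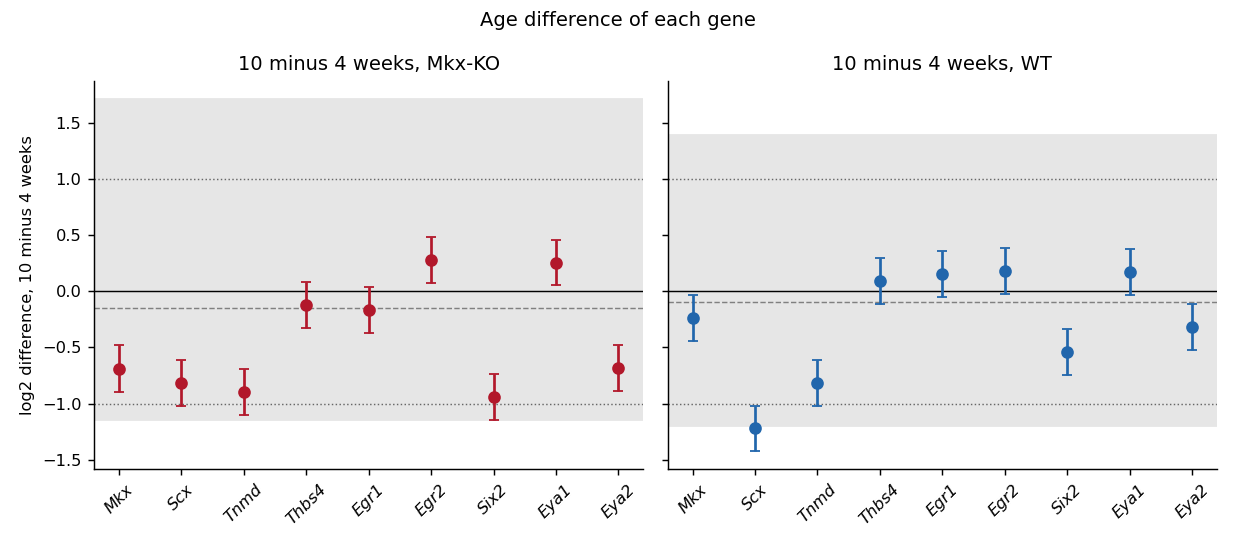
Log2 difference, 10 weeks minus 4 weeks, of the 9 genes in Mkx-KO and in WT, with bars for the technical error; the grey band is the central 95% of all measured genes, the dashed line their median and the dotted lines 2-fold. Scx in WT, at −1.22, is the one member outside the band.

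The genotype difference at 10 weeks minus that at 4 weeks was −0.45 for Mkx, 0.41 for Scx, −0.40 for Six2, −0.37 for Eya2 and −0.32 for Egr1, each with a technical error of 0.29. None of the 9 exceeded 2 technical errors, and with 1 array per group the interaction could not be tested.

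Profiles were compared by the distance between levels on the 4 arrays, each centred on its own mean, over 15503 other genes that passed the background call on each array. The genes nearest to Mkx were Myl10 at 0.48, Fam110c at 0.85 and Idi2 at 0.87, and no gene lay within 0.3. Myl10, a myosin light chain gene, had differences of −1.46 at 10 weeks and −1.44 at 4 weeks between Mkx-KO and WT, and Fam110c −1.11 and −1.14. Each has 1 probe, which was dim in Mkx-KO. Its log2 levels at 10 and 4 weeks were −4.26 and −3.81 for Myl10, and −3.56 and −3.43 for Fam110c. The size of these differences is limited by signal over background. The probes of Idi2 disagreed, from −1.23 to −0.41 at 10 weeks. Other members had many near profiles: 55 genes lay within 0.3 of Scx, with Mpped1, Gpihbp1 and Phospho1 nearest, and 114 within 0.3 of Tnmd, with Slc8a2, Lrrc19 and Begain nearest. Mpped1 and Phospho1 were dim too, at −3.85 and −4.09 in WT at 10 weeks. Six2 had 1403 such genes, led by Sbk1, Pcbp4 and Zbtb7c, and Eya2 3258, led by Galnt10, Hps1 and Ppp2r1a. For the flat profiles the nearest genes were Iqcb1, Pus3 and Slc45a4 for Thbs4, Kctd9, Mbd6 and Ywhaz for Egr1, Rsbn1, Il15ra and Zranb3 for Egr2, and Mtrf1, Dnajc10 and Zfp935 for Eya1. Among the members the closest pair was Egr2 and Eya1 at 0.077, followed by Six2 and Eya2 at 0.244. Scx and Tnmd were 0.80 apart, and Mkx was at least 1.70 from every other member.

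The genes that these factors are known to act with, or on, were described by lists. Of tendon and ligament matrix 20 genes were listed, all measured at 10 weeks, with a median difference of 0.17. In Mkx-KO 1 was 2-fold or more below WT, against 1.37% of all measured genes, and 1 was 2-fold or more above it, against 1.04%. The lower one was Kera, which encodes the small leucine-rich proteoglycan keratocan, with log2 levels of −3.83 in Mkx-KO and −1.92 in WT. Its 1 probe was dim in Mkx-KO, not far from the second Mkx probe, which was at −4.16 there. The size of the Kera difference is therefore limited by signal over background. The higher one was Cilp, a cartilage intermediate layer protein gene, with a difference of 1.01, and it was under 2-fold by the deposited values, which left 0 genes 2-fold higher. At 4 weeks 19 were measured, with a median of 0.05. Kera at −1.16 ± 0.29 was the one at least 2-fold lower, against 3.31% of all measured genes. None was 2-fold higher, against 0.472%. The Kera level in Mkx-KO was again dim, at −3.82. Col1a1 differed by 0.14 at 10 weeks and by 0.05 at 4 weeks.

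Of 19 growth factor signals upstream of tendon regulators, 17 were measured at each age. None was 2-fold apart between Mkx-KO and WT, against 2.41% of all measured genes at 10 weeks and 3.78% at 4 weeks. The list medians were −0.02 at 10 weeks and −0.04 at 4 weeks. The largest differences at 10 weeks were those of Etv4, an FGF-responsive factor, at −0.34 and Smad2, a TGF-beta signal transducer, at −0.24. At 4 weeks they were Tgfb1, a ligand, at 0.52 and Gdf5, a joint and tendon ligand, at −0.51. Of 9 cartilage and muscle regulators, 6 were measured at 10 weeks and 5 at 4 weeks, again with none 2-fold apart and medians of 0.14 and 0.00. Sox6, a cartilage factor, at 0.42 and Myf6, a muscle factor, at 0.32 led at 10 weeks, where the 16 muscle markers had a median of 0.38. Runx2, the bone factor, at −0.35 and Sox9, the cartilage factor, at 0.14 led at 4 weeks, where the Runx2 probes ranged from −0.35 to 0.26.

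Relatives of Six2, Eya1 and Eya2, together with the Dach and Pax genes that act with them, numbered 11, of which 9 were measured at 10 weeks and 6 at 4 weeks, with none 2-fold apart and medians of 0.04 and 0.18. That holds for the brightest probes, and the Eya3 probes ranged from −0.12 to 1.28 at 10 weeks. Pax7, a muscle stem cell factor, at −0.61 and Dach1, a co-repressor, at 0.54 led at 10 weeks. Dach1 at −0.45 and Six5 at 0.39 led at 4 weeks. The Egr family with its co-repressors and co-induced early genes had 9 measured genes at each age and none 2-fold apart by its brightest probe. Medians were −0.03 at 10 weeks and 0.29 at 4 weeks, where 8 of the 9 were above 0, as were 58.8% of all measured genes, and Fosb, an AP-1 factor, at 0.89 led. The Fosb probes ranged from 0.89 to 1.38 at 4 weeks, so its dimmer probe was past 2-fold. At 10 weeks the 2 most different were Fosb at 0.52, whose probes ranged from −0.11 to 0.52, and Junb, another AP-1 factor, at −0.22, whose probes ranged from −0.22 to 0.48. At 4 weeks Atf3, a stress-induced factor, stood at 0.44.

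Of the paralogs of Mkx, Scx, Tnmd and Thbs4, 11 of 12 were measured at 10 weeks and 10 at 4 weeks. Irx1, an Iroquois homeobox gene related to Mkx, was the one that was at least 2-fold apart, with −1.09 at 10 weeks, and it was at 0.77 at 4 weeks. Of all measured genes 2.41% were at least 2-fold apart at 10 weeks and 3.78% at 4 weeks. Irx2, a further Iroquois gene, was at −0.94 at 10 weeks and 0.62 at 4 weeks. The stratified epithelium markers had the same signs, with median differences of −0.78 at 10 weeks and 0.48 at 4 weeks, and their part in the Irx1 and Irx2 values was not tested.

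**Figure D5:**
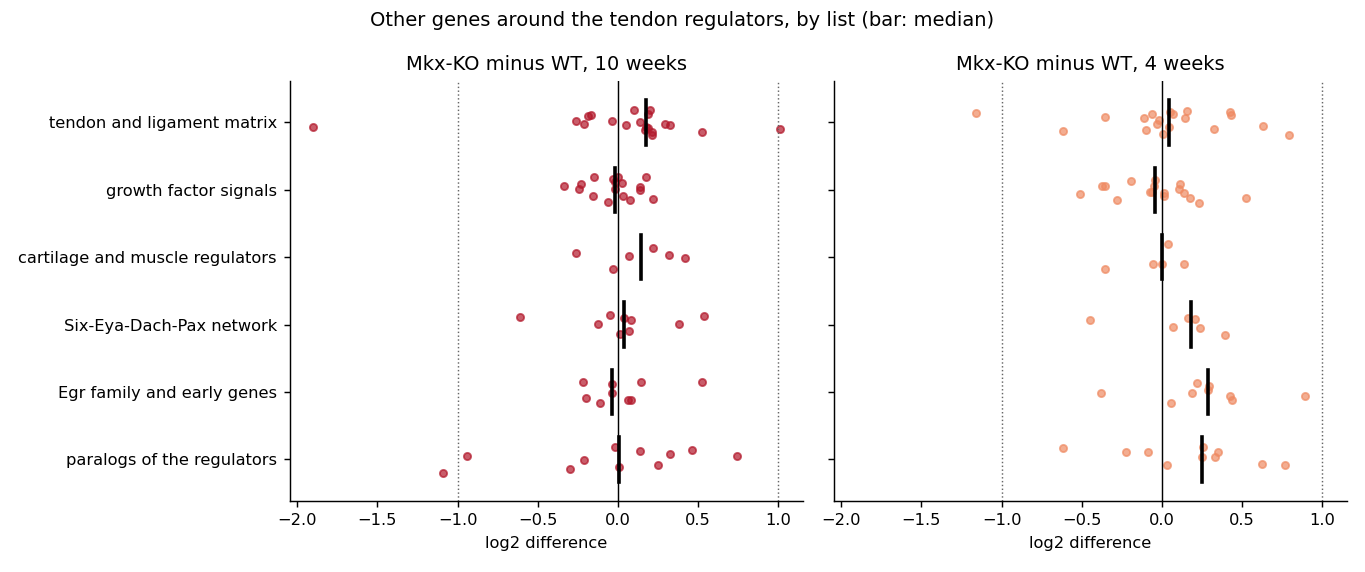
Log2 difference, Mkx-KO minus WT, of each measured gene in the 6 lists at 10 weeks and at 4 weeks, with the list median. Most genes lie within 2-fold. Kera, at −1.90 and −1.16, is the gene at least 2-fold lower at both ages, from 1 probe that is dim in Mkx-KO.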

How the data were processed

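Cy3-labelled cRNA was hybridised to 4 one-colour Agilent arrays, all on 1 slide, with 0.1 ug of total RNA per labelling per the labels. Spot intensity was read with Agilent Feature Extraction 11.5.1.1, per the submitters' processing notes, and the deposited processed intensity is background-subtracted and linear. The deposited series table holds the same intensity times 1 factor per array: 2.08 for Mkx-KO and 1.81 for WT at 10 weeks, and 1.54 for Mkx-KO and 1.64 for WT at 4 weeks. Its purpose is not given in the sources used here.

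From the deposited intensity, log2 values minus each array's 75th percentile over non-control probes were computed. Of 59305 non-control spots on each array, 65.3% in Mkx-KO and 66.6% in WT at 10 weeks, and 61.8% in Mkx-KO and 62.3% in WT at 4 weeks, were well above background, none was saturated, and 60 to 77 outlier spots were left out. Probes were named through RefSeq accessions (32994 of 56605), and the brightest probe stood for a gene. A gene was measured in a comparison if well above background on both arrays, and called if at least 2-fold apart. Additive genotype and age terms were fitted with limma 3.58.1 (R 4.3.3) to genes that passed the background call on 2 or more arrays. P-values were adjusted by Benjamini-Hochberg, and the fit was tested on simulated data. Python 3.11.15, numpy 2.4.6 and pandas 2.3.3 did the rest. The array design is on another build than the gene table, so no gene positions are given.

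Named genes were the 9 members, the 3 nearest in pattern to each (olfactory receptors and clone names left out), and, per list and age, up to 4 genes 2-fold apart or else the 2 most different; others were chosen after their values were seen. The members and lists were chosen with earlier results of these data known. Alternatives were normexp background correction (on the median spot intensity, since the mean is not among the columns), quantile normalization, median centring, the deposited values, a local spot offset, the mean of a gene's probes, no background filter, and fold thresholds of 1.5 and 3. No value column was left unmapped (0).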

Additional observations from a re-analysis of the deposited data

Results flagged for a closer look

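These genes had differences of opposite sign at the 2 ages or in the 2 genotypes, and the difference between them was not tested. For Mkx-KO minus WT, Thbs4 was at −0.18 at 10 weeks and 0.03 at 4 weeks, Egr2 at 0.04 and −0.06, Six2 at −0.06 and 0.34, and Eya2 at −0.03 and 0.34. For 10 weeks minus 4 weeks, Thbs4 was at −0.12 in Mkx-KO and 0.09 in WT, and Egr1 at −0.17 in Mkx-KO and 0.15 in WT. Every one of these 12 differences lay within 2 technical errors.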

How the results depend on the processing

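The 36 differences of the 9 members were recomputed under 6 other processings, and of the 216 values 188 moved by less than 1 technical error, 28 moved by more and 0 called values changed sign. The deposited values gave 18 of the 28. Differences within 2 technical errors that changed sign under at least 1 processing were those of Egr1 and Egr2 for genotype at 10 weeks, Thbs4 and Egr1 for age in Mkx-KO, and Mkx and Eya2 for age in WT. Mkx in Mkx-KO minus WT kept its direction, from −2.20 to −1.47 at 10 weeks and from −1.69 to −1.35 at 4 weeks, and moved by more than its error with normexp, to −1.47 and −1.35. The counts of genes at least 2-fold apart moved by over 1.5 times with normexp, to 150 for Mkx-KO and WT at 10 weeks, 259 at 4 weeks, 815 for age in Mkx-KO and 705 for age in WT. Without the background filter they were 1384, 2071, 3445 and 2919. With a threshold of 1.5-fold they were 1468, 1546, 4298 and 3753, and with 3-fold 86, 246, 569 and 491. Of the members, a threshold of 1.5-fold called 2 for genotype at 10 weeks, 1 at 4 weeks, 5 for age in Mkx-KO and 2 for age in WT. Beside these stood 1468 of 16457, 1546 of 15686, 4298 of 15669 and 3753 of 16102 measured genes, in that order. Past 2 technical errors lay 4 to 6 members for age in Mkx-KO and 2 to 6 in WT, depending on the processing. Of all measured genes, 31.1% to 42.8% in Mkx-KO and 24.0% to 41.2% in WT did. The 6 in WT came from the deposited values, by which 4 of them were higher at 10 weeks. Scx as the one member called for age in WT was lost at 3-fold (0) and with the deposited values (0), by which it was at −0.87. limma called 31 genes for age with normexp, 22 higher and 9 lower, against 0 without it. Differences of dim probes, such as the second Mkx probe and those of Kera, Myl10 and Fam110c, were limited by signal over background. No paired analysis was possible because each group has 1 array and the labels carry no replicate numbers. The fit without the Mkx-KO array at 4 weeks was not run, since it leaves no residual degrees of freedom.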

Other observations

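The same lists were also counted between the ages. Of the cartilage and muscle regulators, 2 of 5 measured genes were at least 2-fold higher at 10 weeks than at 4 weeks in Mkx-KO and 1 of 6 in WT, against 6.25% and 5.01% of all measured genes, with medians of 0.68 and 0.70. By the authors' deposited values 2 and 3 were. The skeletal muscle markers were at least 2-fold higher at 10 weeks for 14 of 16 genes in Mkx-KO and for 3 of 16 in WT, and their part in those counts was not tested. Of the tendon and ligament matrix genes, 2 of 19 were at least 2-fold lower at 10 weeks in Mkx-KO and 1 of 20 in WT, against 3.84% and 3.83% of all genes, none was 2-fold higher in either, and the medians were −0.11 and −0.16. The deposited values turned this round, with 0 lower in each and 2 higher in Mkx-KO and 4 in WT. The Egr family and early genes had 0 of 9 genes 2-fold apart in each genotype. By the scaling used here 8 of the 9 were below 0 in Mkx-KO and 7 in WT, as were 62.3% and 59.5% of all genes, and by the deposited values 7 in Mkx-KO and 1 in WT were, beside 37.0% and 25.9% of all genes.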
